A study of Equus caballus with 4 samples.

Results

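The genes described here buffer the ATP supply of muscle or carry oxygen, fatty acids and carbon dioxide in it. They are the AMP deaminases *ampd1*, *ampd2* and *ampd3*, the creatine kinases *ckm*, *ckb* and *ckmt2*, the adenylate kinase *ak1*, myoglobin (*mb*), the fatty acid-binding protein *fabp3* and the carbonic anhydrase *ca3*. The 10 genes were chosen by name, and every non-control probe whose gene symbol in the scanner files equals one of them was taken, which gave 21 of the 43603 probes and 10 of the 13468 gene symbols on the array. The cells were equine satellite cells (ESC), stem cells of skeletal muscle that fuse into myotubes, taken from *m. semitendinosus* and used on day 3 of differentiation. Cells of the HMB-treated group received the leucine metabolite HMB at 50 µM for 24 h, and 3 mM H2O2 was added for the last 1 h. Cells of the control group received H2O2 and no HMB, so the comparison shows HMB under H2O2 in both groups and holds no cells without H2O2.

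The muscle came from young stallions, and the study's methods state that the culture with the best viability and fusion was carried forward, so the 4 replicates need not be 4 horses. Each of the 4 arrays carried HMB-treated cells labeled with Cy5 and control cells labeled with Cy3, and gave 1 ratio per spot. The dyes were not swapped, hence treatment and dye cannot be told apart. All arrays lay on 1 slide, and the sample labels give the control channel the same replicate number on every array. The p-values therefore measure the spread between these 4 arrays, which may be partly technical.

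In muscle, creatine kinases pass phosphate between ATP and creatine, and adenylate kinase turns pairs of ADP into ATP and AMP. AMP deaminase removes AMP by turning it into IMP, the first step of the purine nucleotide cycle, and AMP that is not removed activates the AMP-activated kinase. Myoglobin stores oxygen, FABP3 carries fatty acids through the cytosol, and CA3 converts carbon dioxide and bicarbonate in muscle fibers. AMPD1, CKM and CKMT2 are the isoforms typical of striated muscle, whereas AMPD2, AMPD3 and CKB are made in many tissues.

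The probes have 60 bases, and their sequences in the scanner files show which transcripts the AMP deaminase values rest on. The AMPD1 and AMPD3 probes lie in matching stretches of the related transcripts. In the first AMPD1 probe (EquCab1, chr5:29717401-29717460, minus strand) and the third AMPD3 probe (chr7:67403188-67403247, plus strand), aligned without gaps, 35 of 49 overlapping bases were identical (71.4%). In the second AMPD1 probe (chr5:29717328-29717387, minus strand) and the first AMPD3 probe (chr7:67403262-67403321, plus strand), 30 of 48 were identical (62.5%). Capitals mark the identical bases.
AMPD1 probe 1: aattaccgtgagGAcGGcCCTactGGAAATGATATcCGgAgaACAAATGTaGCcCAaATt
AMPD3 probe 3: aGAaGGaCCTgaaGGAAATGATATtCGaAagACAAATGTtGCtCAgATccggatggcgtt
AMPD1 probe 2: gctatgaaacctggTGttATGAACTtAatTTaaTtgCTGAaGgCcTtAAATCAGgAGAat
AMPD3 probe 1: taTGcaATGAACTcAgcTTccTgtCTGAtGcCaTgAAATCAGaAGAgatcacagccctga

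The probes of *ampd2*, *ckm* and *mb* are also shown. Each is the only probe of its gene, as are those of *ckmt2*, *ak1* and *ca3*, which are not shown. The value of each of these genes below stands on 1 sequence. The AMPD2 probe lies at chr5:25295297-25295356 on the plus strand, the CKM probe at chr10:15982221-15982280 and the MB probe at chr28:33023672-33023731, both on the minus strand (EquCab1). The capitals in the CKM probe mark the stop codon that closes its open reading frame, so this probe reads the 3′ end of the coding sequence.
AMPD2: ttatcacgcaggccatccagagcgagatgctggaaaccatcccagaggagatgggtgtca
CKM: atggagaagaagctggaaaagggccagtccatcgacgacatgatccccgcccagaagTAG
MB: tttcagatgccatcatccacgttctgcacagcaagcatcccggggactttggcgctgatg

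Differences are given as log2 ratios of HMB-treated over control cells, and signals as the processed brightness of a spot, which cannot be compared between probes. A gene was called where limma's p, adjusted by Benjamini-Hochberg over all tested probes, was at most 0.05 and the fold change (FC) at least 1.3, and it is represented by its brightest tested probe. A probe was tested if 1 or both channels were well above background on all 4 arrays. On the 4 arrays, 55.2% to 61.8% of the spots in a channel were well above background when controls were left out, no spot was saturated, and no spot of the 21 probes was marked as an outlier.

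Of the 10 genes, 9 were tested. Lower expression in the HMB-treated group was called for 6 of them, *ampd1*, *ampd3*, *ckm*, *ckb*, *ckmt2* and *mb*, and higher expression for 0. Among all 8398 tested genes, 17.2% were called lower and 10% higher, together 27.3%. Of the 21 probes, 18 were tested, and 11 of these were called lower and 0 higher, against 16.4% lower and 12.1% higher (28.6% in either direction) of all 24673 tested probes. The 11 include 5 overlapping *ckb* probes that repeat 1 measurement. They also include the *mb* probe and the second *ampd1* probe, which passed the filter through the control channel, with HMB signals well above background on 1 and 2 arrays. The calls of these probes carry no support of their own. With no adjustment, 6 of the 9 had a log2 ratio below 0 at a p under 0.05 and 0 had one above 0, in limma and by the methods' t-test alike. Where both channels had to be well above background, *mb* was not tested and 5 of 8 genes were called lower. The 3 tested genes without a call were *ampd2*, *ak1* and *fabp3*, and *ca3* was too dim to be tested. Of the 9 tested genes, 6 had a log2 ratio below 0 on every array, which 38.8% of all tested genes had. These were the 6 called genes, and the call itself favors ratios of the same sign. The median log2 ratio of the 9 genes was −0.74, against −0.09 over all tested genes, and on single arrays it ran from −1.02 to −0.61. This median is the value of *mb*. With both channels required, the median of the 8 genes was −0.68, against −0.07 over all genes then tested.

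**Figure D1:**
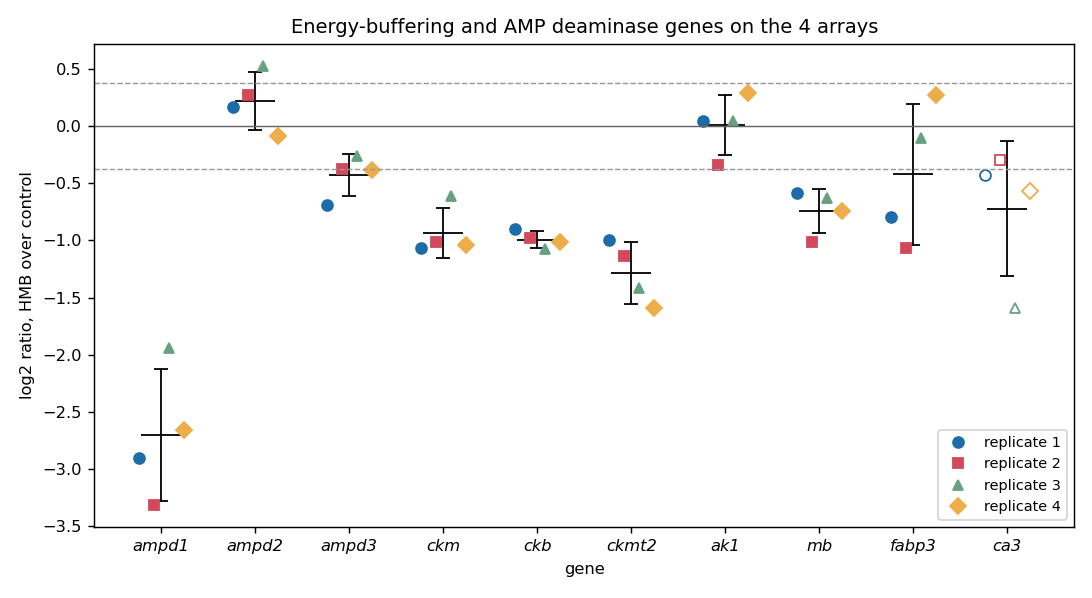
Log2 ratio of HMB-treated over control cells (y axis) for the 10 genes (x axis), with 1 marker for each of the 4 arrays, the mean as a long bar and the SD as whiskers. Open markers show the untested *ca3*, and dashed lines mark an FC of 1.3 in each direction. All 4 markers of *ampd1* sit between −3.31 and −1.94, below those of every other gene shown.

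**Figure D2:**
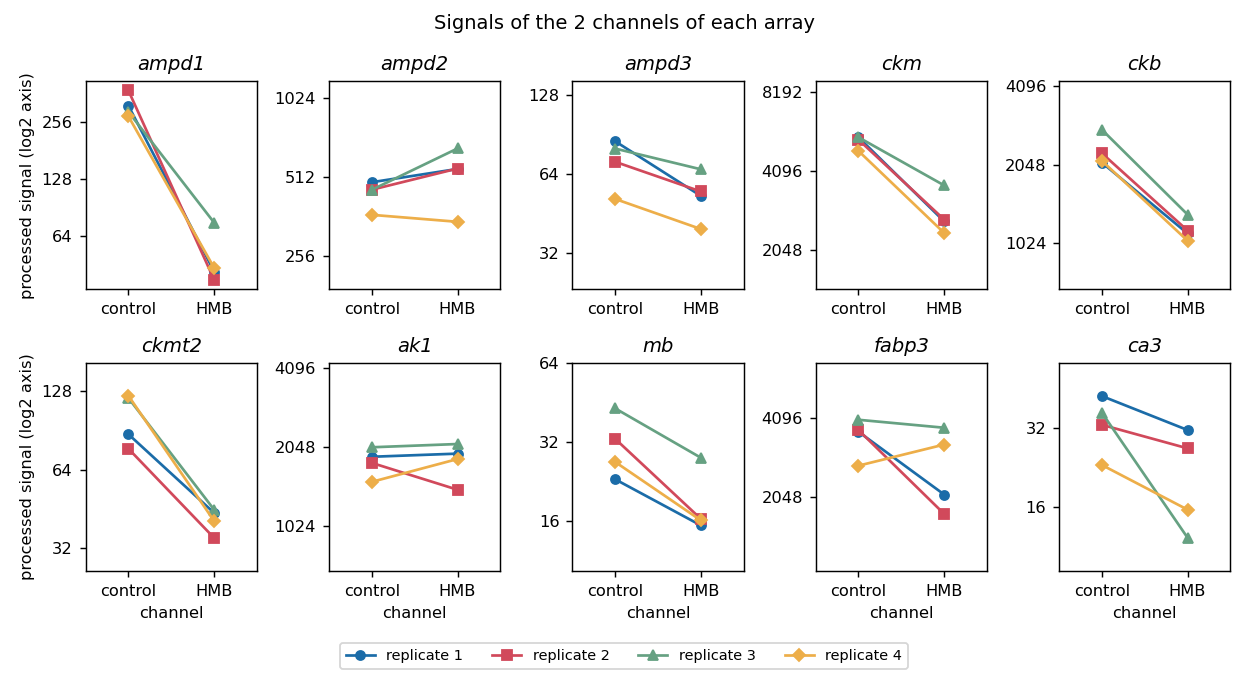
Processed signal of the brightest probe of each gene in the control and the HMB channel of each array (y axis, log2 scale, a separate axis for each gene). Lines join the channels of 1 array. For *ampd1*, *ckm*, *ckb* and *ckmt2* every line falls and the channels do not overlap, whereas the lines of *ak1* and *fabp3* cross.

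Among the AMP deaminases, expression fell most for *ampd1*, the isoform of skeletal muscle. Its brightest probe gave control signals of 311, 374, 289 and 273 on arrays 1 to 4 and HMB signals of 41.6, 37.6, 75.2 and 43.4. The highest HMB signal was well below the lowest control signal. The log2 ratios were −2.90, −3.31, −1.94 and −2.66, with a mean of −2.70 ± 0.58 (SD, n = 4), a 6.51-fold lower level with an adjusted p of 0.000194 and a 95% confidence interval of −3.20 to −2.21. Of the 8398 tested genes, *ampd1* had rank 2 from the lowest mean. The decrease was smallest on array 3, where the HMB signal was the highest of the 4.

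The second *ampd1* probe, which does not overlap the first, gave log2 ratios of −3.06, −3.18, −1.98 and −2.44 and a mean of −2.67 ± 0.56 (SD, n = 4; adjusted p = 0.000184). The arrays stood in the same order with both probes, from array 2 with the lowest ratio to array 3 with the highest. In this probe the HMB signal was well above background on 2 of the 4 arrays and the control signal on all 4. The call of this second probe therefore carries no support of its own. With normexp background correction and loess the mean of the first probe was −1.32, and with loess and no background correction it was −1.72, and the gene was called in both.

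The other AMP deaminases gave smaller values. For *ampd2*, the form also found in liver, the control signals were 489, 457, 457 and 367 and the HMB signals 549, 551, 658 and 345. The channels overlapped, with HMB above control on arrays 1 to 3 and below it on array 4. The mean log2 ratio was 0.22 ± 0.25 (SD, n = 4; adjusted p = 0.131), and its 95% interval of −0.03 to 0.47 holds values past the FC threshold.

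For *ampd3*, the form known from red blood cells, the control signals were 85.6, 71.4, 80.2 and 51.5 and the HMB signals 52.9, 55.0, 66.8 and 39.5. HMB was below control on every array, although the channels overlapped across arrays. The log2 ratios of −0.69, −0.38, −0.26 and −0.38 had a mean of −0.43 ± 0.18 (SD, n = 4), an FC of 1.35 downward with an adjusted p of 0.00816. This call lies near the FC threshold. It was lost without array 1 (mean −0.34), with normexp and loess (−0.12), with loess and no background correction (−0.18), by the methods' t-test (adjusted p = 0.0563) and by treat. The other *ampd3* probes were not well above background in either channel on any array, so *ampd3* rests on 1 probe. At the third *ampd3* probe, printed above beside the first *ampd1* probe, the signals were 4.73 to 5.05 in the control and 6.10 to 9.97 in the HMB channel, with surrogate values on 3 arrays in each channel.

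Within each array, the log2 ratio of *ampd1* lay below that of *ampd2*, with differences of −3.58 to −2.47, and below that of *ampd3*, with differences of −2.94 to −1.68. The mean differences were −2.92 ± 0.51 and −2.27 ± 0.52 (SD, n = 4). The ratio of *ampd2* was above that of *ampd3* on all 4 arrays, with a mean difference of 0.65 ± 0.25 (SD, n = 4). For each of these differences the exact sign-flip permutation test, two-sided, gave p = 0.13, the smallest that 4 arrays allow, and 0.188 after Benjamini-Hochberg adjustment over 6 pairs.

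**Figure D3:**
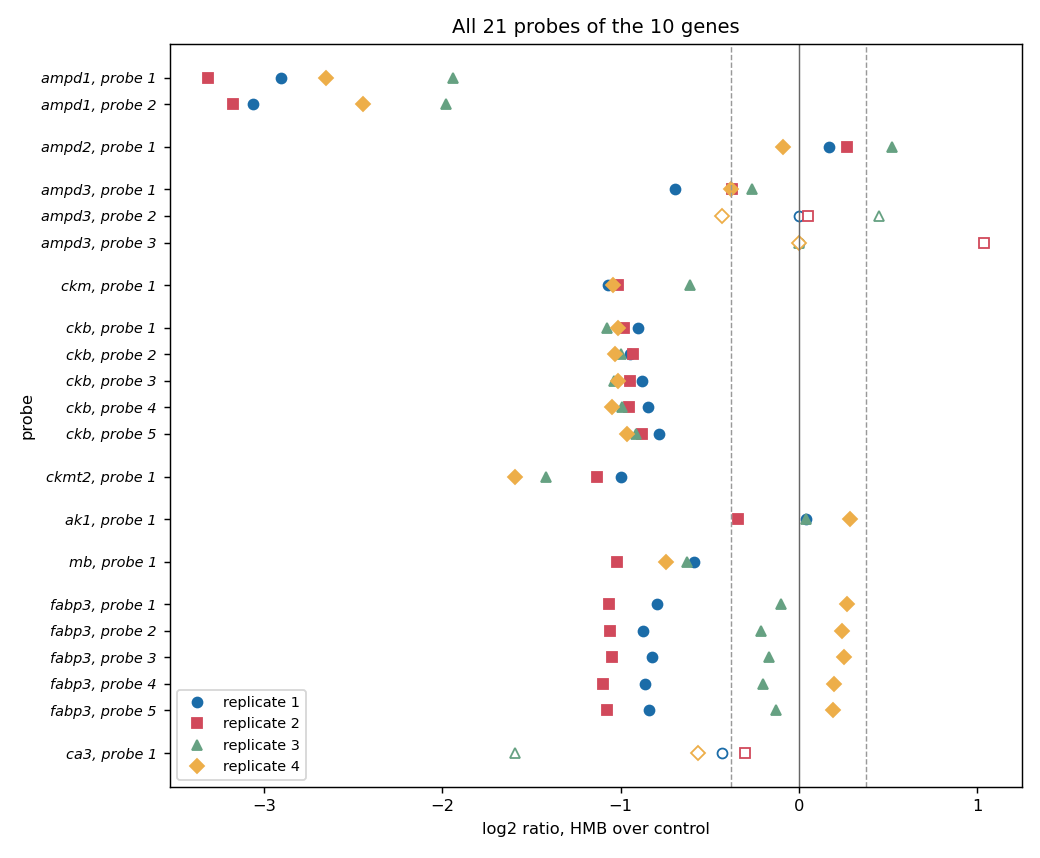
Log2 ratio of HMB-treated over control cells (x axis) at each of the 21 probes (y axis, brightest probe of a gene first), with 1 marker per array. Open markers are probes that were not tested and dashed lines an FC of 1.3. The 5 probes of *ckb* keep their markers close together, while the 5 of *fabp3* spread the arrays in the same order at each probe.

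All creatine kinases on this list fell. CKM, the cytosolic muscle form, gave control signals of 5518, 5406, 5519 and 4896 and HMB signals of 2631, 2674, 3613 and 2377, with no overlap. The log2 ratios were −1.07, −1.02, −0.61 and −1.04, with a mean of −0.93 ± 0.22 (SD, n = 4; 1.91-fold lower, adjusted p = 0.000575). Array 3 gave the smallest decrease, and the other arrays lay close together. Without array 3 the mean was −1.04.

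CKB, the cytosolic form found in brain and in many other cells, including myoblasts, was read by 5 probes that shift by 1 base and together cover 64 bases of chromosome 24, so they repeat 1 measurement. The brightest gave control signals of 2084, 2263, 2785 and 2117 and HMB signals of 1116, 1145, 1319 and 1047. The HMB signals were below every control signal. The log2 ratios of −0.90, −0.98, −1.08 and −1.02 had a mean of −0.99 ± 0.07 (SD, n = 4; 1.99-fold lower, adjusted p = 8.90e-05). Over the 5 probes the means ran from −0.99 to −0.89, all called lower. The SD between the probes of 1 array was 0.03 to 0.06, and the SD between the arrays was 0.07.

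CKMT2, the form in the mitochondria of striated muscle, gave weak signals of 87.3, 76.9, 120 and 123 in the control and 43.7, 35.0, 44.9 and 40.6 in the HMB-treated group. All were well above background, and the channels did not overlap. The log2 ratios of −0.9997, −1.13, −1.42 and −1.59 had a mean of −1.29 ± 0.27 (SD, n = 4; 2.44-fold lower, adjusted p = 0.000290). The mean was −0.42 with normexp and loess and −0.62 with loess and no background correction, and the gene was called in both.

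The decreases of the creatine kinases were not told apart. The log2 ratio of *ckm* exceeded that of *ckb* by 0.06 ± 0.28 (SD, n = 4; exact sign-flip permutation p = 1, with differences of −0.17 to 0.47). It exceeded that of *ckmt2* by 0.35 ± 0.40 (SD, n = 4; exact permutation p = 0.25, −0.07 to 0.81). For *ckb* against *ckmt2* the difference was 0.29 ± 0.22 (SD, n = 4), above 0 on all 4 arrays (exact permutation p = 0.13, the smallest possible). The differences from *ckmt2* changed sign with either loess alternative.

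AK1, the adenylate kinase of the muscle cytosol, gave control signals of 1882, 1783, 2046 and 1509 and HMB signals of 1934, 1408, 2105 and 1844. The log2 ratios were 0.04, −0.34, 0.04 and 0.29, so the arrays lay on both sides of 0. The mean was 0.0075 ± 0.26 (SD, n = 4; adjusted p = 0.959), with a 95% interval of −0.25 to 0.26, within the FC threshold in both directions.

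The oxygen store myoglobin was dim. The *mb* signals were 23.0, 32.9, 43.0 and 26.8 in the control and 15.3, 16.2, 27.8 and 16.0 in the HMB-treated group, where only 1 of 4 was well above background. HMB was below control on each array, but the highest HMB signal exceeded the lowest control signals. The log2 ratios of −0.59, −1.02, −0.63 and −0.74 had a mean of −0.74 ± 0.19 (SD, n = 4; 1.67-fold lower, adjusted p = 0.00111). Since *mb* entered the test through the control channel, its call carries no support of its own. The call was lost with normexp and loess (mean −0.14) and with loess and no background correction (−0.21).

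FABP3, the carrier of fatty acids, had the largest SD between the arrays among the 9 tested genes. Its brightest probe gave control signals of 3631, 3686, 4034 and 2693 and HMB signals of 2088, 1761, 3761 and 3244. The log2 ratio was −0.80 and −1.07 on arrays 1 and 2, −0.10 on array 3 and 0.27 on array 4. The mean was −0.42 ± 0.62 (SD, n = 4; adjusted p = 0.157; 95% interval −0.95 to 0.11), and without array 4 it was −0.65 and called. The other probes showed the same order of the arrays. Over the 5 overlapping probes, which cover 64 bases of chromosome 2, the SD within an array was 0.02 to 0.05 and the SD between the arrays 0.60.

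CA3, the carbonic anhydrase of slow muscle fibers, gave control signals of 42.4, 32.9, 36.7 and 23.1, of which 2 were well above background, and HMB signals of 31.4, 26.7, 12.2 and 15.6, of which 0 were. HMB was below control on all 4 arrays, with log2 ratios of −0.43, −0.30, −1.59 and −0.57. Array 3 gave the lowest ratio. The mean was −0.72, and *ca3* was not called when the filter on dim probes was dropped (adjusted p = 0.153). The 60 bases of the *ca3* probe are split over 899 bases of chromosome 9 in the files.

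**Figure D4:**
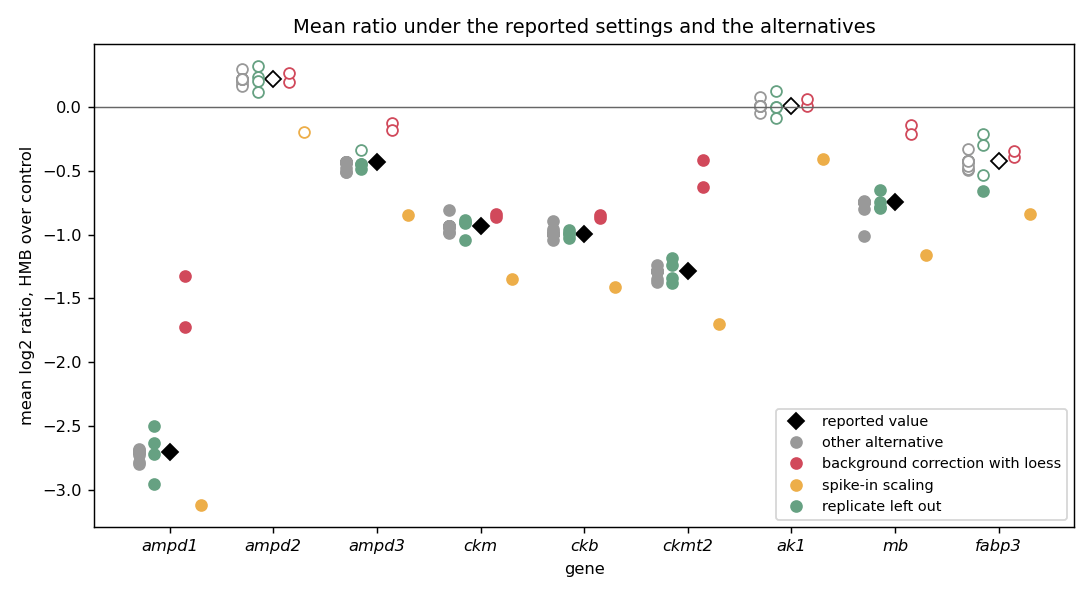
Mean log2 ratio (y axis) of the 9 tested genes (x axis) as reported (diamonds) and under 19 alternatives (circles, by kind). Filled symbols are called and open symbols are not. *ampd1*, *ckm*, *ckb* and *ckmt2* are filled throughout, and *ampd3* and *mb* come near 0 with the loess alternatives.

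Among markers of the cell types that the culture could hold, most of those of myogenic cells were called lower along with these genes, and those of fibroblasts were not. Of 12 myogenic markers tested, 10 were called lower and 0 higher (median log2 ratio −0.97), beside 17.2% and 10% of all tested genes. The myogenic factors *myod1* (mean 0.32, above 0 on 3 of 4 arrays) and *myog* (0.03) were not called. Called lower, *myf6* was well above background in the control channel only, so its call carries no support of its own. The summed signal of the 12, in which *actc1* was the brightest, was 428381 to 512278 in the control and 225445 to 327043 in the HMB-treated group. Of 8 fibroblast markers, 0 were called lower and 5 higher (median 0.54), with summed signals of 417151 to 507317 and 410879 to 641648. Most of these sums came from *col1a2* and *col3a1*, which were not called. The pericyte and leukocyte markers gave 0 calls of 2 tested and 1 higher call of 2 tested. No marker of adipocytes or endothelium was tested, and *fabp4*, *lep*, *cidec*, *pecam1*, *cdh5*, *vwf*, *kdr*, *cd3e*, *cd79a*, *itgam* and *rgs5* were not well above background in either channel on any array. The part of these markers in the decrease of the energy-buffering genes was not tested. In such bulk RNA, fewer myotubes and less of a transcript per myotube cannot be told apart.

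The lists of neighboring pathway genes hold 78 genes on the array, of which 56 were tested, 8 called lower and 9 called higher. Among all tested genes 17.2% were called lower and 10% higher, and nothing particular to the lists is read from their counts. With scaling to spike-in RNA, which moved the median of all genes by −0.41, the count of lower calls grew in each of the 5 lists. Genes for the synthesis and uptake of creatine fell as well. Of 7 tested genes for creatine and adenylate or related kinases (9 on the array, median log2 ratio −0.25), 3 were called lower and 1 higher. GATM, which makes the precursor of creatine, gave log2 ratios of −0.91, −1.04, −1.18 and −1.04 (mean −1.04 ± 0.11, SD, n = 4; adjusted p = 0.000111). GAMT, which methylates that precursor to creatine, had a mean of −0.53 ± 0.06 (SD, n = 4; adjusted p = 0.000966), and SLC6A8, the creatine transporter, −0.66 ± 0.10 (SD, n = 4; adjusted p = 0.000618). All were below 0 on every array. The gene called higher was *ak4*, an adenylate kinase of the mitochondrial matrix, at 0.66 ± 0.08 (SD, n = 4; adjusted p = 0.000480). The calls of *slc6a8* and *ak4* were lost with either loess alternative, that of *ak4* also with spike-in scaling (mean 0.24) and that of *gamt* by treat.

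**Figure D5:**
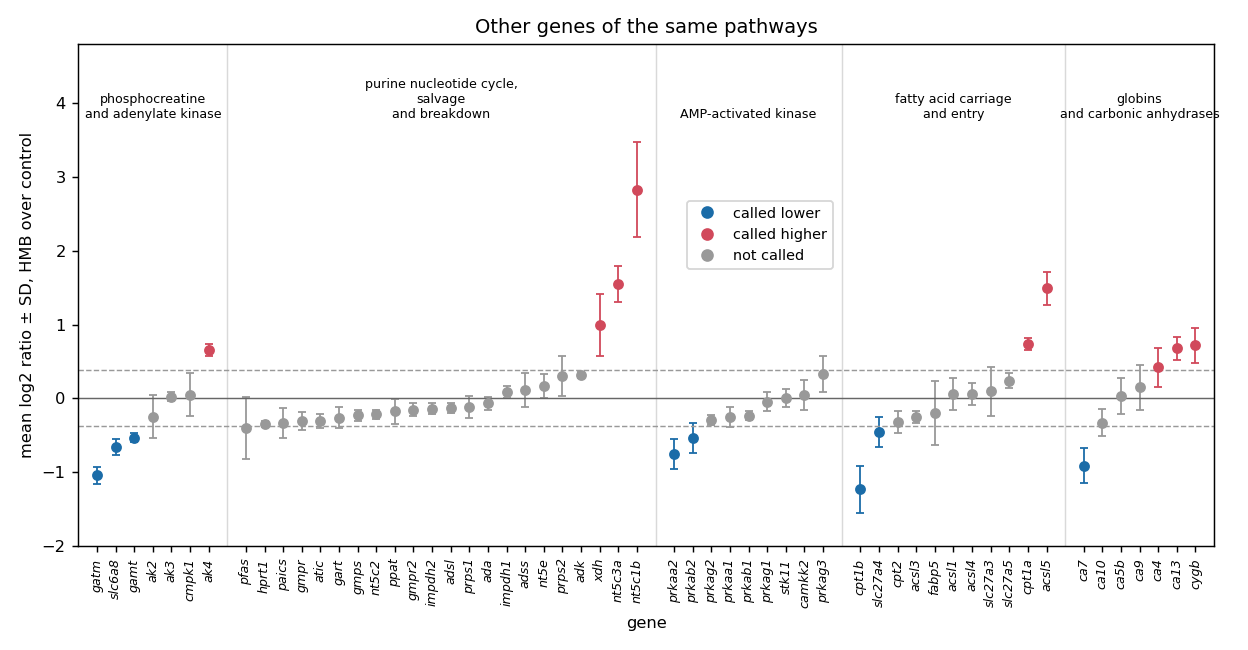
Mean log2 ratio with SD over 4 arrays (y axis) of the 56 tested genes of the 5 pathway lists (x axis, ordered within each list). Blue points were called lower, red points higher and gray points not, and dashed lines mark an FC of 1.3. Most genes of the purine list lie between the dashed lines, and the 3 at the right end of that list were called higher.

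Of the enzymes that follow AMP deaminase in the purine nucleotide cycle, those tested were not called. The related *adssl1* was looked for and was not among the tested genes, so its level is not known here. ADSS, which joins IMP with aspartate, had a mean log2 ratio of 0.12 (adjusted p = 0.363), and ADSL, which releases AMP again, −0.13 (adjusted p = 0.134). Of 22 tested genes on the list for the cycle and for purine salvage, synthesis and breakdown (23 on the array, median −0.13), 0 were called lower and 3 higher. With spike-in scaling 14 were called lower and 3 higher. The 3 higher calls act in nucleotide breakdown. NT5C3A, a cytosolic nucleotidase mainly of pyrimidine and not purine nucleotides, gave 1.403, 1.83, 1.66 and 1.29 (mean 1.54 ± 0.25, SD, n = 4; adjusted p = 0.000110). XDH, which makes uric acid, gave 0.50, 1.09, 1.52 and 0.87 (mean 1.00 ± 0.42, SD, n = 4; adjusted p = 0.00337), a call lost by the methods' t-test (adjusted p = 0.0557). Its mean was 0.44 with normexp and loess and 0.67 with loess and no background correction. NT5C1B, a nucleotidase that takes AMP, was not well above background in the control on any array and was on all 4 in the HMB-treated group. It entered the test through the HMB channel alone, so its call carries no support of its own, and with both channels required 2 of 21 genes were called higher. Its HMB signals were 40.8 to 46.0 and its control signals 3.62 to 10.2. With the dim control signals raised to the lowest signal well above background, the level was 4.37-fold higher, which is no lower limit. With normexp and loess the mean log2 ratio was 0.41, and with loess and no background correction 0.60, against 2.83 on the processed signals.

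The list of the AMP-activated kinase, which senses AMP, holds 9 genes, its subunits and the upstream kinases *stk11* and *camkk2*. All were tested, with 2 called lower and 0 higher (median log2 ratio −0.23), and 7 were called lower with spike-in scaling. The 2 were the subunits typical of muscle, *prkaa2* (catalytic, mean −0.76 ± 0.20, SD, n = 4; adjusted p = 0.00114) and *prkab2* (regulatory, −0.54 ± 0.20, SD, n = 4; adjusted p = 0.00413). The HMB signal of *prkaa2* was well above background on 1 of 4 arrays, so this gene was not tested where both channels were required. It entered the test through the control channel, so its call carries no support of its own. With both channels required, 1 of 8 genes on this list was called lower. The call of *prkaa2* was lost with either loess alternative. That of *prkab2* was lost by treat. The related *prkaa1* and *prkab1* had means of −0.25 and −0.23 and were not called, and neither was *prkag3*, a subunit of muscle, at 0.33 (adjusted p = 0.0367). The differences between subunits were not tested.

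Of 11 tested fatty acid genes (21 on the array, median log2 ratio 0.06), 2 were called lower and 2 higher, beside 17.2% and 10% of all tested genes. CPT1B, the muscle form of the enzyme that admits fatty acids to mitochondria, gave −1.32, −1.59, −1.19 and −0.83 (mean −1.23 ± 0.32, SD, n = 4; adjusted p = 0.000561). Its HMB signal was well above background on 3 of 4 arrays, so *cpt1b* was not tested where both channels were required. The call of *cpt1b* thus carries no support of its own, and with both channels required 1 of 10 genes was called lower. CPT1A, the liver form of the same enzyme, gave 0.66, 0.81, 0.81 and 0.66 (mean 0.74 ± 0.08, SD, n = 4; adjusted p = 0.000327). The values of *cpt1b* and *cpt1a* lay on opposite sides of 0 on every array, and the difference was not tested. ACSL5, which activates fatty acids, had a mean of 1.49 ± 0.22 (SD, n = 4; adjusted p = 9.93e-05) and the transporter *slc27a4* −0.46 ± 0.20 (SD, n = 4; adjusted p = 0.00748). The call of *slc27a4* was lost with either loess alternative, by treat and by the methods' t-test, and that of *cpt1b* with normexp and loess (mean −0.34). That of *cpt1a* was lost with spike-in scaling (mean 0.32).

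Among the relatives of myoglobin and CA3, 7 of 16 genes were tested, with 1 called lower and 3 higher (median log2 ratio 0.15). Cytoglobin (*cygb*), a globin of many tissues, had a mean of 0.72 ± 0.24 (SD, n = 4; adjusted p = 0.00204). The carbonic anhydrase *ca7* had −0.91 ± 0.24 (SD, n = 4; adjusted p = 0.000825), *ca13* 0.68 ± 0.16 (SD, n = 4; adjusted p = 0.00107) and *ca4*, bound to the cell surface, 0.42 ± 0.27 (SD, n = 4; adjusted p = 0.0207). The calls of *cygb* and *ca4* were lost with either loess alternative and that of *ca13* with normexp and loess. With spike-in scaling *cygb* (mean 0.31), *ca13* (0.26) and *ca4* (0.0044) all lost their calls. The call of *ca4* was also lost without array 1 (mean 0.41, adjusted p = 0.0562) and without array 2 (0.30). The methods' t-test (adjusted p = 0.107), treat, median centering without lowess, the GC correction and keeping dim probes removed it as well. In all, *ca4* lost its call in 10 of 19 alternatives. By treat *cygb* lost its call too (adjusted p = 0.0551).

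The genes whose ratios lay nearest to those of *ampd1*, by the root mean square distance over the 4 arrays, were *clca1* (0.31), *lrrn1* (0.37) and *myh2* (0.55). CLCA1, named for calcium-activated chloride channels, gave log2 ratios of −2.57, −3.59, −2.33 and −2.46. LRRN1, a leucine-rich repeat protein, gave −2.67, −2.63, −1.93 and −2.48, and both were called lower (adjusted p = 0.000186 and 4.51e-05). Like *ampd1*, they had their smallest decrease on array 3, a likeness that their selection by these ratios favors. Their HMB signals were well above background on 1 and 2 of the 4 arrays, respectively. *clca1* and *lrrn1* thus entered the test through the control channel. They were not tested where both channels had to be well above background, so their calls carry no support of their own. MYH2, a myosin heavy chain of fast fibers, was not well above background in the HMB-treated group on any array, with control signals of 27.4 to 47.5 and HMB signals of 5.47 to 13.7. It entered the test through the control channel alone, so its call carries no support of its own. With the dim HMB signals raised to the lowest signal well above background, the level of *myh2* was 3.61-fold lower, which is no lower limit. With normexp and loess the mean log2 ratios of *clca1*, *lrrn1* and *myh2* were −0.90, −0.81 and −0.34, the last no longer called (adjusted p = 0.0502). With loess and no background correction they were −1.27, −1.11 and −0.50, against −2.74, −2.43 and −2.21 on the processed signals.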

How the data were processed

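The arrays were Agilent horse arrays with 45220 spots, annotated on EquCab1 in the file headers. In the deposited intensity values the authors' software, Feature Extraction (version 10.10.1.1 in the headers), had subtracted the background and applied linear and lowess dye normalization, with surrogate values for signals at background. The deposited log10 values are ratios of Cy5 (HMB) over Cy3 (control), and the authors' table holds the same values for every non-control probe (largest difference 0). They were turned into log2 here. A surrogate compresses or bounds a ratio. Marked and control spots were left out. Probes carried the symbol of the files, or for 480 probes one matched through a RefSeq accession. R 4.3.3 and limma 3.58.1 were used, with an intercept-only fit of 24673 probes tested on simulated data. Precision is limited by the 4 arrays. For genes dim in 1 channel, a dim signal was raised to the higher of its own value and the lowest signal well above background on that array. Average intensities were first made alike between arrays. Some brighter signals were not well above background (*ca3*, HMB channel of array 1, 31.4), so these folds are no lower limits. The members and lists were chosen with earlier results of these data known. Named genes are all members, up to 3 called genes per list and direction, and the 3 nearest to *ampd1*. Alternatives covered the test, background, scaling, filters, probe choice and each replicate left out. Promoter sequences were not used here, and the files give no exon.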

Additional observations from a re-analysis of the deposited data

Results flagged for a closer look

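Of 41 probes examined for 1 array far from the other arrays, 3 were picked out, and chance picks out about 1 in 20. The log2 ratio of *ckm* was −0.61 on array 3, against −1.07 to −1.02 on the others. That of *ak4* was 0.54 on array 4, against 0.69 to 0.71. At the third *ampd3* probe it was 1.04 on array 2, against 0 on the other arrays, where both channels held surrogate values, and neither channel was well above background there.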

How the results depend on the processing

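Between 4 and 8 member genes were called lower over 19 alternatives, and 0 were called higher under any. The count was lowest with either loess alternative, which left *ampd3* and *mb* without a call, and highest with scaling to spike-in RNA. The median of −0.74 became −0.39 with normexp and loess, −0.34 with loess and no background correction and −1.16 with spike-in scaling, and it ran from −0.80 to −0.65 without 1 replicate. Spike-in RNA had median log2 ratios of 0.35 to 0.45, so that scaling moved the median of all genes by −0.41, the share called lower to 64.9%, and *ak1* to −0.41 (called), *ampd2* to −0.20 and *fabp3* to −0.84 (called). The mean of *ak1* was −0.048 with the GC correction, and −0.0033, 0.124, −0.0037 and −0.087 without replicates 1 to 4. Of the calls over all genes, 36.8% were higher, with 49.7% under normexp and loess, 54.6% with loess alone, 48.3% by treat, 6.26% with spike-in scaling and 26.8% with the GC correction. All genes called lower numbered 1448, with 504, 576, 446 and 5453 under the first 4 of these.

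The difference of *ckm* from *ckb* was −0.014 with normexp and loess, and −0.076 to 0.136 without 1 replicate. That of *ckm* from *ckmt2* was −0.45 with normexp and −0.22 without background correction, and that of *ckb* from *ckmt2* was −0.43 and −0.25. The causes were not tested. Of 374 values for named pathway genes and neighbors of *ampd1*, 341 kept their call and 33 lost it, with none changing sign. Of 190 counts of called genes in the pathway lists, 29 changed by over 1.5 times or moved to or from 0. With spike-in scaling 5, 14, 7, 5 and 3 genes of the 5 lists were called lower, in place of 3, 0, 2, 2 and 1. Dim signals limit *mb*, *ca3* and *ampd3*. The sizes of the decreases of *ampd1* and *ckmt2* also depended on the background step. With normexp and loess they were −1.32 and −0.42, in place of −2.70 and −1.29. Every value is a ratio within 1 array and so pairs both channels already. No paired analysis was possible beyond this because a further block for the array leaves nothing to compare within it.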
